A study of Mus musculus with 12 samples.

Results

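SR proteins, hnRNPs and the kinases that act on them were followed across the 4 conditions of a microarray study of BV-2 microglia, an immortalized line of mouse microglia. All probe sets of the Mouse Genome 430 2.0 array annotated to 46 listed genes were taken, whatever their values. Of the 45037 probe sets other than array controls, 178 belonged to 44 of these genes, and Srsf7 and Hnrnpa3 were not analysed here. A probe set is a group of short probes against 1 transcript region, and a gene often has several. The microglia were left untreated (control) or were kept for 24 h with 50 µM of the plant flavonoid luteolin, with 50 ng/ml of the bacterial cell wall component lipopolysaccharide (LPS), or with luteolin + LPS. Each condition had 3 arrays, 12 in all, and the labels number them 1 to 3. That arrays of 1 number belong to 1 of the paper's 3 rounds of stimulation was inferred, because the paper does not mention the numbers. BV-2 is 1 clonal line carried in culture, and all 12 arrays came from it. Against array medians of 52.0 to 56.2, the macrophage genes Cd68, Lyz2, Csf1r, Ptprc, Adgre1, Spi1 and Itgam read at least 210 in every array and Aif1 33.5 to 436, while the homeostatic microglia markers Cx3cr1, P2ry12 and Tmem119 reached at most 60.1, 112 and 120.

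SR proteins carry an RNA-binding domain and a tail rich in arginine and serine, bind exon sequences in pre-mRNA and promote the use of nearby splice sites. The hnRNP proteins coat nascent transcripts and often oppose them. The Srpk kinases phosphorylate the arginine-serine tail in the cytoplasm, which lets SR proteins enter the nucleus, and the Clk kinases phosphorylate it further in the nucleus, which releases them from storage speckles. Many of these genes also splice their own transcripts into forms that are degraded, so that different probe sets of 1 gene can report different transcripts. Probe sets of a gene were therefore compared with each other as well as between conditions.

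Among the members, Rbmx, Clk2 and Srpk1 had the probe sets in which luteolin gave the lowest adjusted p-values among those with a lower level, apart from a weak probe set of Srsf3. Their promoters are shown for that reason, from 250 bases before to 50 bases after the start of the gene, as in RefSeq for GRCm38.p6. Rbmx lies on the minus strand at chrX:57392987-57393286, Clk2 on the plus strand at chr3:89164545-89164844 and Srpk1 on the minus strand at chr17:28622472-28622771. Capitals mark a match, on either strand, to the GC box (GGGCGG), the CCAAT box (CCAAT), the TATA box (TATAAA) or a motif of the ETS factors (CCGGAA).
Rbmx: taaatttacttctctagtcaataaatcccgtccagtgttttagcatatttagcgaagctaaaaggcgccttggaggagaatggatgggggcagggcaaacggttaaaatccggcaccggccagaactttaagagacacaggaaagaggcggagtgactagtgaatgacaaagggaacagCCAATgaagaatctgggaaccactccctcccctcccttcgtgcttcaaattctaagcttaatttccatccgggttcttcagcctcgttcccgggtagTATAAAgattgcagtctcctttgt
Clk2: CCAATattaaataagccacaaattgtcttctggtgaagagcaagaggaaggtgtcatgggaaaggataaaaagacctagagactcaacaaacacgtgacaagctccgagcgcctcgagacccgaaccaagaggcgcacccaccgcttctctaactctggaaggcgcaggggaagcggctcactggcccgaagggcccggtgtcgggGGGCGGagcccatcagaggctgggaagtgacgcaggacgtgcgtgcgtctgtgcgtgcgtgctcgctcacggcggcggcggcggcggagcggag
Srpk1: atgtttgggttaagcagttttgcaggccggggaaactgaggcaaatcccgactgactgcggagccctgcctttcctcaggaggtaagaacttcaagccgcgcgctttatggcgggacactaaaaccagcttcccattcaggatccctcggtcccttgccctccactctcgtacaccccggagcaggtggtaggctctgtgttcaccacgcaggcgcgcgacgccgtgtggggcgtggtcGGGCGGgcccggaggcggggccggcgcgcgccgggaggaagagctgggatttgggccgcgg
The Rbmx window held 1 CCAAT box and 1 TATA box by letters, the Clk2 window 1 CCAAT box and 1 GC box, and the Srpk1 window 1 GC box. The TATA box letters of Rbmx lay after the annotated start of the gene, not before it. Of 32851 mouse promoter windows of the same kind, 35.7% held the GC box, 37.4% the CCAAT box, 13.6% the TATA box and 14.9% the ETS motif. No motif was shared by the 3 windows, and a match is a description of letters only.

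Values are deposited RMA signals. Differences are log2 fold changes with the standard error (SE) of limma, and adjusted p-values are those of limma with Benjamini-Hochberg adjustment over all 24281 probe sets that reached a mean signal of 50 in 1 or more conditions. Of the members, 152 probe sets of all 44 genes passed this minimum: 37 of 11 SR genes, 40 of 14 hnRNP genes, 13 of 6 kinase genes and 62 of 13 genes of SR-related and associated splicing proteins. For each gene, the probe set with the highest mean stands for its level unless another is named, and at that probe set the control signals ran from 320 (Hnrnpl) to 15231 (Hnrnpab). Signals of different probe sets do not compare as transcript amounts, because probes bind with different strength. RMA gives every array the same distribution of probe intensities before they are summarized, and so hides a shift common to the whole transcriptome. The summarized signals still had array medians of 52.0 to 56.2. Less RNA per cell cannot be told apart from fewer responding cells. Arrays that share a number deviated together, and a fit with the number as a replicate block is given where it changes a call.

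One array stood apart before any condition was compared. Relative to the control mean, the median of the 11 SR genes was -1.01 (log2) in LPS replicate 1, against -0.11 and 0.07 in the other LPS arrays and -0.60 to 0.26 in the remaining arrays. It was the lowest of the 12 arrays for 22 of 37 SR probe sets (59.5%), compared with 22.1% of all tested probe sets. For hnRNP genes its median was -0.52 and for kinases 0.07. Array 1 also had the lowest SR median in each of the other conditions: -0.39 in control, -0.28 with luteolin and -0.60 with luteolin + LPS. The log2 ratio of the 3′ to the 5′ control probe sets, which reflects RNA integrity where labeling starts at the 3′ end, was -0.10 for Gapdh and 0.14 for Actb in LPS replicate 1, with ranges over all arrays of -0.16 to -0.10 and 0.13 to 0.45. The labels name a whole-transcript labeling assay and the methods labeled cRNA, and the labeling used was not settled. Its relation to the SR result was not tested. Many of the values that use this array are also given without it.

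**Figure D1:**
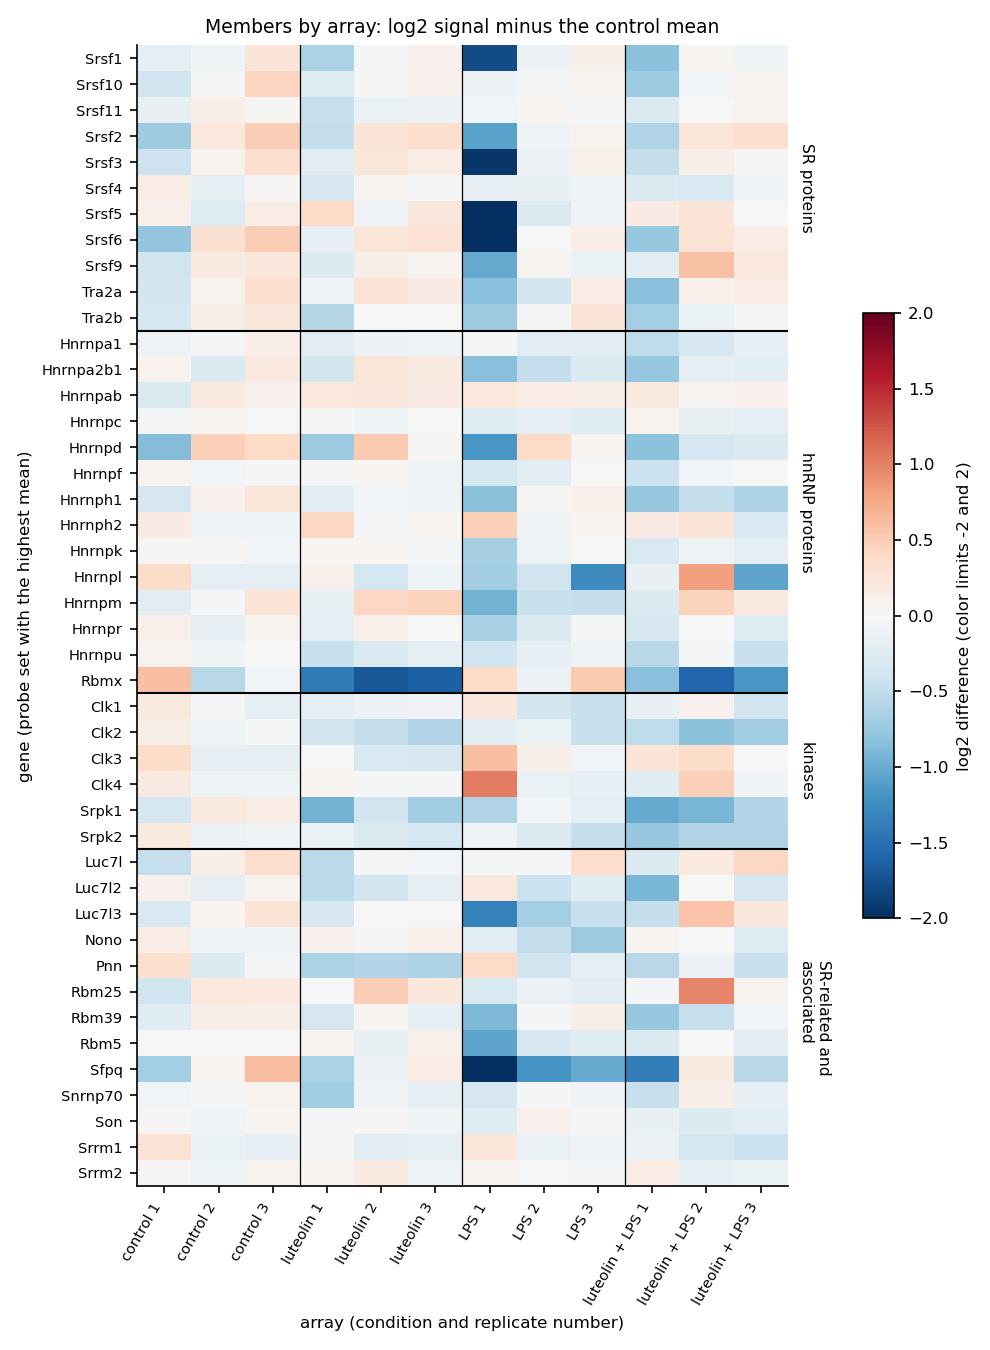
Log2 signal of each of the 44 member genes (rows, at the probe set with the highest mean, grouped by role) minus its control mean, in each of the 12 arrays (columns). Blue is lower and red higher, and values past -2 or 2 take the end color. SR genes are darkest in LPS replicate 1, where their median was -1.01, and Rbmx is blue in all 6 arrays with luteolin.

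The first comparison asked what LPS does to these mRNAs. Of the 152 member probe sets, 2 fell with LPS and none rose: 1 of Hnrnpc and 1 of Sfpq. This is 1.32% of them, and 3.2% of all tested probe sets passed (1.73% lower, 1.47% higher). An unadjusted p under 0.05 was reached by 19 member probe sets (12.5%), and by 19.5% of all. With the replicate block, 14 member probe sets passed, all lower (9.21%), against 8.61% of all tested (5.38% lower, 3.23% higher). Without LPS replicate 1 the block left 7, and the fit without a block left 1, of Nono. Calls over the whole table also became fewer. Of 12063 genes, the block called 678 lower and 452 higher with all arrays, and 380 and 328 without LPS replicate 1. Without a block these were 214 and 207, and then 139 and 169.

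The direction of the values was nonetheless uneven. LPS gave a log2 fold change under 0 in 125 of 152 member probe sets (82.2%, median -0.22), whereas 55.3% of all tested probe sets were under 0 (median -0.04). Without LPS replicate 1 the members' share was 75% (median -0.13) and that of all tested probe sets 53.6%. The direction also depended on array scaling. With arrays centred on their median, 105 of the 152 member probe sets lay under 0 (median -0.13). The share of all tested probe sets in that setting is not given. By gene, 36 of 44 members lay under 0 with all arrays and 31 of 44 without LPS replicate 1. In 27 member probe sets (12 of hnRNP genes, 12 of SR-related genes, 3 of kinases and none of SR genes) every LPS array lay under every control array, and in none above. Of all tested probe sets, 15.7% did so downward and 10.4% upward.

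Sfpq had the largest log2 fold change with LPS at its highest probe set. It encodes a nuclear RNA-binding protein that pairs with Nono, and both take part in paraspeckles and in splicing. Its probe set 1436898_at read 512, 629 and 561 in control, 466, 528 and 499 with luteolin, 306, 428 and 212 with LPS, and 443, 352 and 418 with luteolin + LPS. All LPS arrays lay under all control arrays, with a log2 fold change of -0.90 (SE 0.21, adjusted p = 0.0492), and the value without LPS replicate 1 was -0.91 (adjusted p = 0.0974). Leaving out each array in turn, it passed in 2 of 12 fits, those without LPS replicate 2 or luteolin + LPS replicate 2. The highest probe set, 1423795_at, read 843, 1412 and 2064 in control, 198, 598 and 671 with LPS, and 518, 1526 and 922 with luteolin + LPS. Here too LPS and control did not overlap, while the luteolin + LPS arrays spread over both ranges. Its log2 fold change was -1.65 (SE 0.52, adjusted p = 0.117, and 0.00739 with the block), and without LPS replicate 1 it was -1.09 (adjusted p = 0.267, and 0.022 with the block). Of the 6 tested Sfpq probe sets, 5 were under 0 and separated LPS from control, and 1439058_at, with signals of 43.9 to 66.9, was at 0.11.

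Nono, the partner of Sfpq, read 8358, 7123 and 7197 in control at 1448103_s_at, and 6492, 5445 and 4563 with LPS. The groups did not overlap, and LPS replicate 1 was the highest of the LPS arrays. The log2 fold change was -0.47 (SE 0.15, adjusted p = 0.11, and 0.0396 with the block), and -0.60 without LPS replicate 1. A second probe set, 1415820_x_at, was at -0.51 (adjusted p = 0.113, and 0.0449 with the block), and it alone passed without the block once LPS replicate 1 was left out, at -0.66 (adjusted p = 0.0477). Probe sets ending in _x_at or _s_at can bind related transcripts, so Nono values may include those of similar sequence.

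Among hnRNP genes, Hnrnpc, whose protein binds uridine stretches in pre-mRNA, fell at 1418693_at. The signals were 999, 1050 and 1101 in control and 567, 776 and 711 with LPS, and they were 936, 814 and 880 with luteolin + LPS. No LPS array reached the control range. The log2 fold change was -0.63 (SE 0.13, adjusted p = 0.0325), and without LPS replicate 1 it was -0.50 (adjusted p = 0.0705). It passed in 6 of the 12 fits that left out 1 array, and not without any one control array, luteolin replicate 3, LPS replicate 1 or LPS replicate 3 (adjusted p up to 0.118). The stronger Hnrnpc probe set, 1460240_a_at, was at -0.22 (SE 0.10, adjusted p = 0.258). Hnrnpm, a regulator of alternative exons, read 1164, 1329 and 1647 in control and 706, 998 and 982 with LPS. It was at -0.63 (SE 0.24, adjusted p = 0.178, and 0.0178 with the block). Without LPS replicate 1 its value was -0.46 (adjusted p = 0.391, and 0.0422 with the block). Hnrnpa2b1 was at -0.53 (SE 0.23, adjusted p = 0.225), and Hnrnpl at -0.78 (SE 0.40, adjusted p = 0.31) with its signals between 135 and 566. Without LPS replicate 1 they were at -0.38 and -0.82.

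Of the SR-related genes, Luc7l3, the relative of a yeast U1 snRNP protein, read 1423, 1800 and 2111 in control at 1424802_a_at, 685, 1098 and 1283 with LPS, and 1260, 2617 and 2061 with luteolin + LPS. Every LPS array was under every control array, and 2 of the luteolin + LPS arrays were above the control mean. The log2 fold change with LPS was -0.83 (SE 0.29, adjusted p = 0.151, and 0.0162 with the block), and without LPS replicate 1 it was -0.56 (adjusted p = 0.355, and 0.0492 with the block). Its second tested probe set was at -0.81 (adjusted p = 0.235, and 0.0425 with the block), and without LPS replicate 1 at -0.49 (0.122 with the block). Rbm5, an RNA-binding regulator of exon choice in apoptosis genes, was at -0.55 (SE 0.19, adjusted p = 0.148), and at -0.29 without LPS replicate 1.

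**Figure D2:**
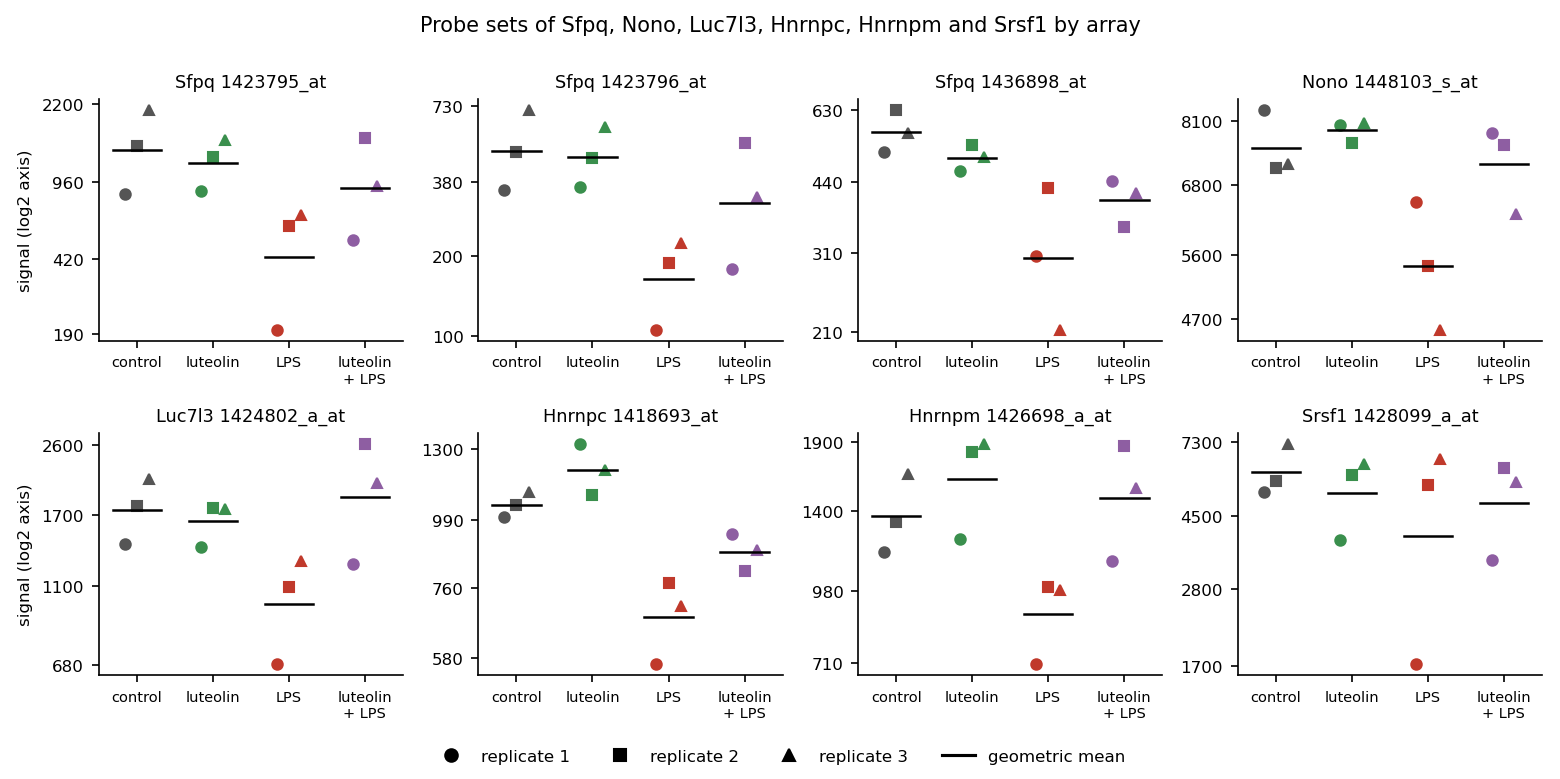
Signal (log2 axis) of 8 probe sets of Sfpq, Nono, Luc7l3, Hnrnpc, Hnrnpm and Srsf1 in each array, by condition, where the marker shape gives the replicate number and the line the geometric mean of 3 arrays. In all panels but that of Srsf1 the 3 LPS arrays lie under the 3 control arrays, and for Srsf1 LPS replicate 1 (1726) alone lies under the control range.

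No SR probe set was called with LPS without the block, and 1 was called with it, 1416720_at of Srsf6 (-0.72, adjusted p = 0.481, and 0.0463 with the block). In the fit without LPS replicate 1 that probe set was at -0.13 (adjusted p = 0.913, and 0.0895 with the block). All 11 SR genes lay under 0 with LPS, with a median of -0.36, and 6 of 11 did so without LPS replicate 1, with a median of -0.0065. Srsf1, the founding member of the family, read 5273, 5666 and 7184 in control and 1726, 5523 and 6512 with LPS. Array 1 alone was outside the control range, and the log2 fold change of -0.60 (SE 0.44, adjusted p = 0.488) became 0.0024 without it. Srsf5 read 5791, 4524 and 6003 in control and 1262, 4487 and 5107 with LPS. Its value was -0.81 (SE 0.42, adjusted p = 0.316), and -0.17 without that array. Srsf3, which promotes exon inclusion and mRNA export, read 3928, 5496 and 6576 in control and 1352, 4834 and 5580 with LPS, at -0.65 (SE 0.45, adjusted p = 0.453) and -0.0065 without array 1. Srsf6 was at -0.63 (SE 0.54, adjusted p = 0.555), and at 0.06 without it. LPS replicate 1 lay under the other LPS arrays in 31 of 37 SR probe sets. At 1416151_at of Srsf3, for example, that array read 57.2 and the other LPS arrays 541 and 692. At 1438215_at of Srsf3 it was instead the highest of the LPS arrays.

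The kinases were on either side of 0 with LPS. Clk2 (-0.27, SE 0.13, adjusted p = 0.284), Srpk1 (-0.29), Srpk2 (-0.28) and Clk1 (-0.20) lay under 0, and Clk3 (0.22) and Clk4 (0.24) above. In LPS replicate 1, Clk4 read 1103, while the other LPS arrays read 495 and 489. Without that array Clk4 was at -0.15, Clk3 at 0.03, Clk1 at -0.41, Srpk1 at -0.13, Srpk2 at -0.37 and Clk2 at -0.29, and 12 of 13 kinase probe sets lay under 0, in place of 9.

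The next question was what luteolin does, in resting and in LPS-activated microglia. For luteolin vs. control, 0 of 152 member probe sets passed, as did 0% of all tested, and 5 members had an unadjusted p under 0.05 (7.79% of all tested). For luteolin + LPS vs. LPS, 0 passed, against 0.247% of all tested, and 19 had an unadjusted p under 0.05 (14% of all tested). The replicate block called 1 member probe set in resting microglia (0.0206% of all tested) and 5 in activated microglia (3.08% of all tested). In the average of luteolin over both states, which uses all 12 arrays, 2 of 152 fell (1.32%) and none rose, while 2.08% of all tested probe sets passed (1.23% lower, 0.853% higher). With the block 7 passed (4.61%), 3 higher and 4 lower, against 7.68% of all tested (3.26% higher, 4.41% lower). An unadjusted p under 0.05 was reached by 14 members (9.21%) and by 17.9% of all tested. In this average the share of members called was smaller than that of the whole table in both fits. The interaction, which asks whether luteolin acts differently in the presence of LPS, called 0 members and 0% of all tested probe sets in either fit, and 1 member had an unadjusted p under 0.05 (2.82% of all tested).

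Rbmx, an hnRNP gene on the X chromosome whose protein is also known as hnRNP G, had the largest luteolin value of any member. At 1416354_at its signals were 751, 336 and 475 in control, 185, 153 and 158 with luteolin, 653, 453 and 710 with LPS, and 276, 165 and 221 with luteolin + LPS. Every array with luteolin lay under every array without it. The log2 fold change averaged over both states was -1.52 (SE 0.20, adjusted p = 0.0114). It was -1.58 in resting microglia (SE 0.29, adjusted p = 0.189, and 0.035 with the block) and -1.46 in activated microglia (SE 0.29, adjusted p = 0.0678, and 0.0109 with the block). LPS alone left Rbmx at 0.27 (SE 0.29, adjusted p = 0.645). The averaged value without LPS replicate 1 was -1.49 (adjusted p = 0.0132), and it passed in 12 of 12 fits that left out 1 array (adjusted p of 0.0125 to 0.0465). The other tested probe set, 1426863_at, read 38.4 to 71.1 over the 12 arrays and was at 0.04, and the remaining pair of Rbmx probe sets stayed under the minimum signal. With the log2 values of all 4 Rbmx probe sets averaged, the weak ones included, the gene was at -0.46 (adjusted p = 0.0613).

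Among the kinases, all 6 genes lay under 0 in the average over both states, with a median of -0.21, and 1 was called. Of all 12063 genes, 5907 lay under 0 (median 0.005), with 1.48% called lower and 0.887% higher. When LPS replicate 1 was left out, 4 of 6 lay under 0, with a median of -0.14, and 2 were called, Clk2 and Srpk1. Without that array, 6180 of all 12063 genes lay under 0 (median -0.006), with 291 called lower and 148 higher. Clk2, a nuclear SR protein kinase, read 1061, 918 and 952 in control, 747, 698 and 646 with luteolin, 833, 893 and 717 with LPS, and 688, 550 and 600 with luteolin + LPS. Luteolin arrays lay under their controls without overlap in both states. The averaged value was -0.45 (SE 0.09, adjusted p = 0.0342), with -0.49 in resting (adjusted p = 0.345) and -0.41 in activated microglia (adjusted p = 0.181). Once LPS replicate 1 was dropped, it was -0.44 (adjusted p = 0.0411). It passed in 2 of 12 fits that left out 1 array, those without LPS replicate 1 or luteolin + LPS replicate 1, and otherwise had an adjusted p of up to 0.103. Srpk1, the cytoplasmic SR protein kinase, read 1192, 1756 and 1700 in control at 1454042_a_at, 794, 1172 and 945 with luteolin, 1006, 1468 and 1330 with LPS, and 762, 811 and 1018 with luteolin + LPS. Resting arrays did not overlap, and activated ones did, by 1 array of each group. The averaged value was -0.61 (SE 0.15, adjusted p = 0.0655, 0.0105 with the block, and 0.0358 without LPS replicate 1). Srpk2 was at -0.32 (SE 0.09, adjusted p = 0.111), and Clk1, Clk3 and Clk4 lay between -0.11 and -0.04. In the fit without LPS replicate 1 Clk1 (0.06) and Clk4 (0.09) turned to above 0 and Clk3 was at -0.015.

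**Figure D3:**
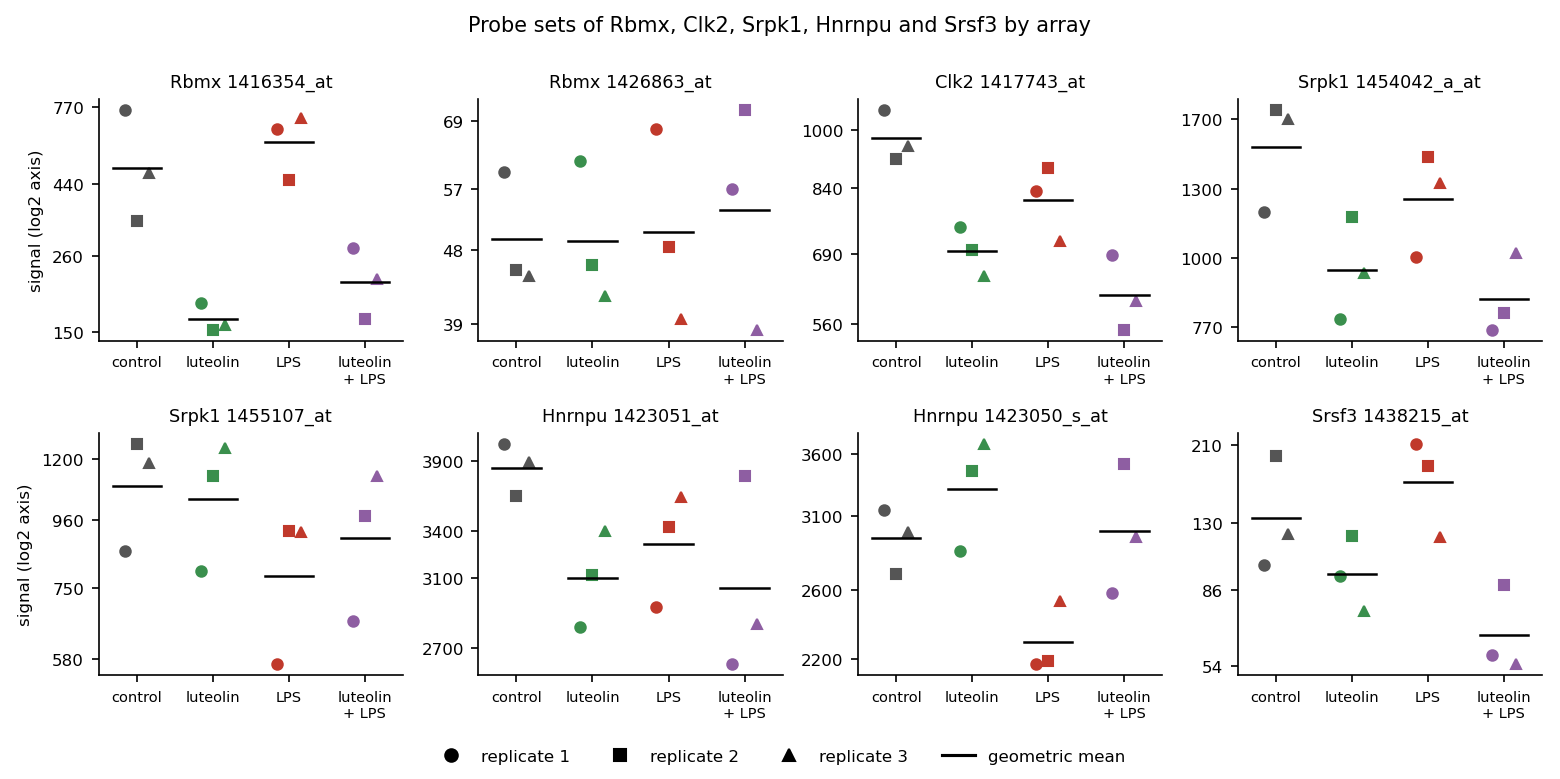
Signal (log2 axis) of 8 probe sets of Rbmx, Clk2, Srpk1, Hnrnpu and Srsf3 in each array, by condition, where the marker shape gives the replicate number and the line the geometric mean of 3 arrays. Rbmx 1416354_at reads 153 to 276 in the 6 luteolin arrays and 336 to 751 in the others, while Rbmx 1426863_at stays between 38.4 and 71.1 and the second Srpk1 probe set shows overlapping groups.

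Other members that the luteolin contrasts brought up did not pass without the block. Pnn, a serine-rich protein of nuclear speckles and cell junctions, read 2271, 1504 and 1762 in control and 1171, 1206 and 1192 with luteolin, without overlap. Its averaged value was -0.46 (SE 0.15, adjusted p = 0.138). Luc7l2 was at -0.31 and Hnrnpu at -0.22. Snrnp70, the U1 snRNP protein, was at -0.31 in resting microglia (SE 0.19, adjusted p = 0.761), and Srsf11 was at -0.24 (SE 0.14, adjusted p = 0.745). Hnrnpm was at 0.49 (SE 0.17, adjusted p = 0.157, and 0.0156 with the block). In activated microglia Hnrnpm read 1119, 1869 and 1547 with luteolin + LPS against 706, 998 and 982 with LPS, without overlap, at 0.74 (SE 0.24, adjusted p = 0.19, and 0.0256 with the block). Luc7l3 was at 0.94 there (SE 0.29, adjusted p = 0.18, and 0.0267 with the block), and Sfpq at 1.07 (SE 0.52, adjusted p = 0.398). These luteolin + LPS values share the LPS arrays with the comparison of LPS with control. When LPS replicate 1 was left out, they were 0.58 for Hnrnpm, 0.67 for Luc7l3 and 0.51 for Sfpq. Rbm25, a regulator of apoptotic splice forms, was at 0.55 (SE 0.26, adjusted p = 0.384).

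For the SR genes, the median in luteolin + LPS vs. LPS was 0.31, with 7 of 11 above 0, and without LPS replicate 1 it was -0.10, with 3 of 11 above 0. Srsf5 read 6040, 6471 and 5375 with luteolin + LPS, above all 3 LPS arrays, at 0.95 (SE 0.42, adjusted p = 0.34), and at 0.31 without that array. Srsf3 was at 0.54, and at -0.10 without it. Srsf9 was at 0.56 (SE 0.30, adjusted p = 0.437), and at 0.24 without it. The median of all tested genes was 0.016 with and -0.00028 without the array.

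Comparing the probe sets within a gene showed where a gene's probe sets did not move alike. Of the 44 genes, 34 had 2 or more tested probe sets, which made 108 pairs of a probe set with the highest one of its gene. With LPS, all probe sets lay under 0 in 17 of the 34 genes, all above in 2, and the signs were mixed in 15. Averaged over both states, luteolin gave 7 genes with all under 0, 9 with all above and 18 mixed. The difference within a pair was called for 0 pairs with LPS (0.181% of all 9391 pairs), 0 with luteolin in resting microglia (0% of all), 0 in activated microglia (0.0213% of all) and 3 in the average (0.511% of all).

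The 3 called pairs belonged to Srpk1, Hnrnpu and Rbmx. In Srpk1, the probe set 1455107_at read 859, 1265 and 1180 in control, 797, 1126 and 1247 with luteolin, 569, 924 and 918 with LPS and 665, 976 and 1126 with luteolin + LPS. Its luteolin value was 0.07, against -0.61 at 1454042_a_at, a difference of 0.68 (SE 0.11, adjusted p = 0.0278). Of 12 fits that left out 1 array, 5 called it, and those without control replicate 2 or 3, luteolin replicate 1 or 3, LPS replicate 2, or luteolin + LPS replicate 2 or 3 did not (adjusted p up to 0.0826). Conversely, LPS gave 1455107_at a value of -0.47 (adjusted p = 0.363, and 0.0238 with the block). Once LPS replicate 1 was dropped, it was -0.24 (adjusted p = 0.699, and 0.0637 with the block). In Hnrnpu, which encodes a scaffold-attachment hnRNP, 1423050_s_at read 3152, 2702 and 2990 in control and 2852, 3460 and 3686 with luteolin, while 1423051_at read 4032, 3641 and 3891 and then 2814, 3116 and 3396. The former had an averaged luteolin value of 0.28 and the latter of -0.22, a difference of 0.50 (SE 0.06, adjusted p = 0.0146). The pair passed in 11 of 12 such fits, the exception being that without luteolin replicate 3 (adjusted p = 0.0571). Against the mean of the gene's other probe sets the difference was 0.29 (adjusted p = 0.332). By its ending, 1423050_s_at can bind related transcripts, so its values may include those of similar sequence. In Rbmx the difference was 1.56 (SE 0.25, adjusted p = 0.0307), and 4 of 12 such fits called it, those without LPS replicate 1 or any one luteolin + LPS array (adjusted p up to 0.0986 in the others). Since 1426863_at lay near the minimum signal in every array, a drop there could hardly be measured.

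Pairs that did not pass included the largest differences of several genes. Of the 6 tested Srsf3 probe sets, 5 lay under 0 with LPS and above 0 with averaged luteolin, and 1438215_at had both signs turned. In the fit without LPS replicate 1 the LPS values of the 5 lay between -0.05 and 0.05 and that of 1438215_at was 0.15, and with averaged luteolin 4 of the 5 stayed above 0. The latter probe set read 101, 197 and 122 in control, 94.0, 120 and 75.7 with luteolin, 211, 185 and 119 with LPS, and 58.0, 88.8 and 54.8 with luteolin + LPS. All luteolin + LPS arrays lay under all LPS arrays. Its value there was -1.35 (SE 0.30, adjusted p = 0.0836, and 0.0194 with the block), and averaged over both states it was -0.92 (SE 0.22, adjusted p = 0.0558, and 0.011 with the block). The pair difference was -1.22 (SE 0.42, adjusted p = 0.271), and without LPS replicate 1 it was -0.81 (adjusted p = 0.142, and 0.00571 with the block). In Tra2b, a splicing activator with a tail at either end, 1444509_at was at 0.50 with luteolin (adjusted p = 0.428, and 0.0277 with the block) and its highest probe set at -0.16, a difference of 0.66 (SE 0.15, adjusted p = 0.0954, and 0.0338 with the block), at signals of 28.8 to 104 for the former. In Sfpq with LPS, 1439058_at differed from 1423795_at by 1.76 (SE 0.61, adjusted p = 0.333), and by 1.09 without LPS replicate 1 (adjusted p = 0.656). The former lay near the minimum signal in every array, where a drop could hardly be measured. In Rbm25, 1437862_at differed from its partner by -0.87 with luteolin (SE 0.40, adjusted p = 0.435), and by -0.58 without LPS replicate 1.

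**Figure D4:**
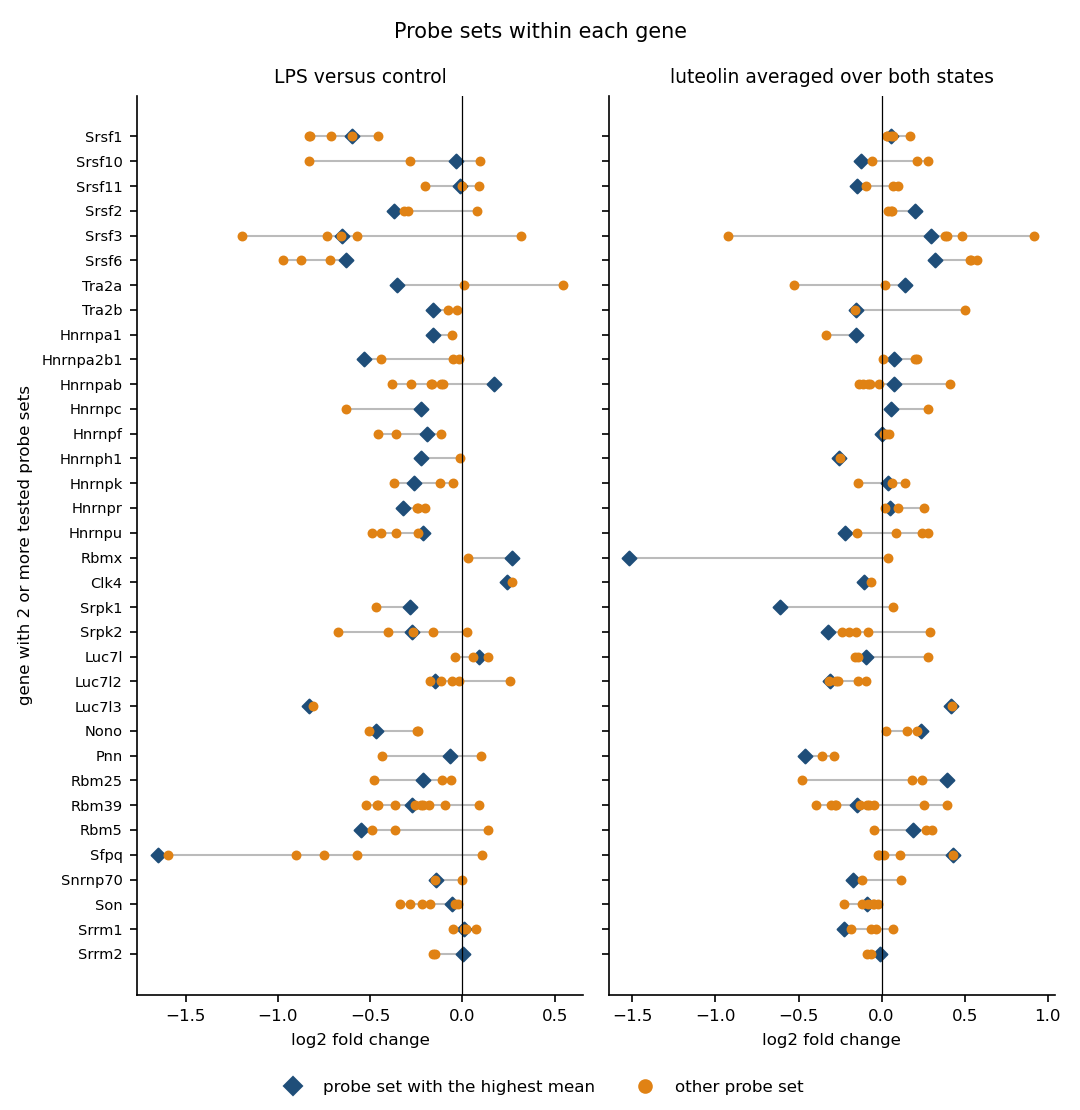
Log2 fold change of every tested probe set of the 34 member genes with 2 or more, for LPS vs. control (left) and for luteolin averaged over both states (right), with 1 gene per row. Diamonds are the probe sets with the highest mean, circles the others, and the grey line spans a gene. Sfpq reaches furthest to the left with LPS (-1.65) and Rbmx with luteolin (-1.52), and the probe sets of Srsf3 lie on both sides of 0 in both panels.

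Other genes of the splicing machinery were counted from lists, by the probe set with the highest mean. Of 58 tested core spliceosome and snRNP genes, 0 passed with LPS and 0 with luteolin averaged over both states, while among all 12063 tested genes 1.72% were higher and 1.77% lower with LPS, and 0.887% higher and 1.48% lower with luteolin. With the replicate block, 3 were lower and 1 higher with LPS (all genes: 5.62% and 3.75%), and 4 lower and 1 higher with luteolin (all genes: 5.24% and 3.16%). The median of the core list with LPS was -0.13, and 39 of 58 lay under 0 (all genes: -0.04, and 54.9% under 0). When LPS replicate 1 was left out, 51.5% of all 12063 genes lay under 0 (median -0.011). There, 139 were lower and 169 higher with LPS, and with the block 380 were lower and 328 higher. The core list then had a median of -0.12, with 37 under 0, and the block called 2 with LPS, both lower. The largest values were those of Ddx46, an RNA helicase (-0.83, SE 0.44, adjusted p = 0.33, and 0.022 with the block), which was at -0.41 without LPS replicate 1 (0.0676 with the block), and with luteolin of Snrpa1, a U2 snRNP protein (-0.71, SE 0.22, adjusted p = 0.13).

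Of 59 other RNA-binding splicing regulators, 1 fell with LPS and 0 passed with luteolin. Their median with LPS was -0.25, with 49 of 59 under 0, against 54.9% of all genes. The block called 5 lower with LPS and 4 lower with luteolin (all genes: 5.62% and 5.24% lower). Once LPS replicate 1 was dropped, the LPS median was -0.16, with 49 under 0, and 2 fell, Celf2 and Tardbp (all genes: 51.5% under 0, and 139 of 12063 lower). The gene called with all arrays was Celf2, a regulator of alternative splicing in immune and nerve cells, at -0.88 (SE 0.14, adjusted p = 0.0089). It passed in 11 of 12 fits that left out 1 array, the exception being that without control replicate 3 (adjusted p = 0.0508). Tardbp (TDP-43) was at -1.02 (SE 0.28, adjusted p = 0.0763, and 0.048 with the block), and at -1.29 without LPS replicate 1 (adjusted p = 0.0328). Pspc1, the paraspeckle relative of Sfpq and Nono, was at -0.76 (SE 0.38, adjusted p = 0.305), and at -0.23 without that array.

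Of 20 further kinases, phosphatases and carriers that act on splicing factors, 0 passed with LPS (median -0.22, 17 under 0) and 1 fell with luteolin. With the block, 3 were lower with LPS (all genes: 5.62%). In the fit without LPS replicate 1 the LPS median was -0.11, with 15 under 0 and 1 lower with the block (all genes: 51.5% under 0, and 380 of 12063 lower with the block). The gene that fell was Srpk3, the muscle-type Srpk kinase, at -1.35 (SE 0.29, adjusted p = 0.0438), and it passed in 2 of 12 fits that left out 1 array, those without LPS replicate 1 or luteolin + LPS replicate 1 (adjusted p up to 0.1 in the others). Prpf4b, a kinase that acts on the tri-snRNP, was at -0.62 with LPS (SE 0.18, adjusted p = 0.095, and 0.0156 with the block), and at -0.45 without LPS replicate 1 (0.0438 with the block). Of 9 exon junction and nonsense-mediated decay genes, 0 passed with LPS (median -0.16, and -0.06 without LPS replicate 1) and Smg6, the endonuclease of that decay, fell with luteolin, at -0.40 (SE 0.07, adjusted p = 0.0261). It passed in 5 of 12 fits that left out 1 array, and not without control replicate 2 or 3, any one luteolin array, or LPS replicate 2 or 3 (adjusted p up to 0.0812). Of 11 minor spliceosome and snRNP assembly genes, 0 passed with LPS (median -0.012). Without LPS replicate 1 the median was -0.044, and the block called 1 lower (all genes: 380 of 12063). Zmat5, a protein of the U11/U12 snRNP, rose with luteolin, at 0.38 (SE 0.09, adjusted p = 0.0494). Zmat5 passed in 1 of 12 fits that left out 1 array, that without LPS replicate 1 (adjusted p = 0.0311, and up to 0.135 in the others). The block called 1 more of them with luteolin, Gemin2, at -0.50 (adjusted p = 0.0719, and 0.0343 with the block). Of all genes, the block called 5.24% lower with luteolin.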

How the data were processed

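The authors hybridized RNA of BV-2 microglia to Affymetrix Mouse Genome 430 2.0 arrays and summarized probes to probe sets with RMA in Expression Console. The deposited values are linear intensities, 1 per probe set and array, with array medians of 52.0 to 56.2. The labels' extraction text names PUER cells, their labeling text a whole-transcript sense-strand assay where the methods have labeled cRNA, and the methods give the joint treatment as LPS+LPS. The cells were taken as BV-2 and the treatment as luteolin + LPS, as the sample titles and the treatment text have it. The number of arrays limits the precision.

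Of the 45101 probe sets, 64 controls were left out. The platform annotation gave 34945 of the rest 1 gene, 932 several and 9160 none, and symbols were updated through RefSeq. Probe sets were kept whose mean signal reached 50 in any condition. Their log2 intensities were fitted with 4 group means (lmFit, contrasts.fit and eBayes of limma 3.58.1, R 4.3.3), with Benjamini-Hochberg adjustment and a threshold of 0.05. The same fit was run on 9391 differences between a probe set and the highest one of its gene. The methods' SAM test works on single probes, which were not used here. Fits were tested on simulated data with independent noise in each array, so without deviations shared by a number or an outlying array. Plots were made in Python 3.11.15 (matplotlib 3.10.9).

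Replicate numbers come from the labels, and the paper describes 3 independent stimulation experiments. Deviations from the group means correlated in all 18 same-number pairs of arrays (r 0.112 to 0.571, median 0.37), so the numbers were taken to pair the arrays. The median for different numbers was -0.27, but deviations from a mean of 3 arrays sum to 0, which pulls these values under 0. The main fit did not use this pairing, which entered only in the fits with a block.

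Members, gene lists and tests were chosen with earlier results of these data known. Genes were named if a probe set or pair passed, if they were among the 10 largest log2 fold changes of a contrast, as the 10 largest pair differences (only some are given), or as the largest of a further list. Alternatives covered the block, array weights, the minimum signal, the scaling, probe set choice and leaving out arrays.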

Additional observations from a re-analysis of the deposited data

How the results depend on the processing

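With 3 arrays per condition, a single array could move a call. The count of member probe sets called with LPS was 2, and it was 14 with the replicate block, 8 with the number as a random block, 15 with array weights, 1 without a minimum signal, 1 with an intensity trend and robust prior, and 0 with arrays centred on their median, with only the arrays of the 2 groups, with 1 probe set per gene or with probe sets averaged by gene. Leaving out single arrays gave 0 to 3. Of all tested probe sets, 3.2% passed with LPS in the main fit and 8.61% with the replicate block. For luteolin in resting microglia the count of 0 became 1 with the replicate block, 1 with the random block and 5 with array weights, and stayed at 0 to 0 without single arrays. In activated microglia the count of 0 became 5, 2 and 1 in the same order, and 0 to 1 without single arrays (1 without control replicate 1). The averaged luteolin count of 2 became 7, 6 and 11, was 1 with centred arrays and 1 with averaged probe sets, and ranged from 1 to 3 without single arrays. For averaged luteolin, 2.08% of all tested probe sets passed in the main fit and 7.68% with the replicate block. Shares of all tested probe sets are not given for the other settings, so those counts cannot be set against the whole table. The interaction count was 0 in every setting run.

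Pairs called with array weights were 2 for LPS, 2 for luteolin in resting and 1 in activated microglia, in place of 0. The averaged luteolin pairs, 3 in number, were 4 with the replicate block, 5 without a minimum signal and 0 to 3 without single arrays (0 without luteolin replicate 3). Other pair counts stayed at 0 to 0 without single arrays.

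A pair of alternatives was chosen after seeing the data. The replicate block without LPS replicate 1 gave 7, 1, 5 and 10 member probe sets for LPS, resting, activated and averaged luteolin, and 2 and 5 pairs for activated and averaged luteolin. Of all 12063 genes, this block fit called 380 lower and 328 higher with LPS, and 990 lower and 492 higher with averaged luteolin. Leaving out all 4 arrays of number 1 gave 7 probe sets and 1 pair in activated microglia and 6 averaged. Shares over the whole table are not given for that fit, nor for resting and activated luteolin in the block fit.

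Some values changed sign when 1 array was left out, each without LPS replicate 1. Over the arrays left out, the LPS values ranged from -1.02 to 0.058 for Srsf6 and from -0.96 to 0.0024 for Srsf1, the activated value of Srsf3 from -0.10 to 0.92, and the averaged value of Srsf6 from -0.020 to 0.51. The interaction ranged from -0.099 to 0.86 for Srsf1, from -0.16 to 0.86 for Srsf3 and from -0.29 to 0.79 for Srsf6. With array weights the averaged Srsf6 value was -0.044. With probe sets averaged by gene, Srsf11 turned to 0.0055 in resting microglia and Rbm25 to -0.080 in activated microglia and -0.065 averaged. None of these passed the threshold, and the cause was not tested. Over the alternatives, adjusted p-values ran from 0.0025 to 0.175 for Hnrnpc 1418693_at and 0.0146 to 0.175 for Sfpq 1436898_at with LPS, and from 0.001 to 0.0613 for Rbmx and 0.0041 to 0.103 for Clk2 with averaged luteolin.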
